A study of Mus musculus with 36 samples.

Results

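The 10 genes described here encode the 5 subunits of the transcription factor NF-kB and 5 kinases or kinase regulators that switch it on. They were taken by symbol from 19879 genes in the deposited tables: Nfkb1, Nfkb2, Rela, Relb and Rel for the subunits, and Chuk, Ikbkb, Ikbkg, Ikbke and Map3k14 for the kinases. Their messenger RNA levels come from poly(A) libraries of BV-2, a line of immortalised microglia from the mouse, in 12 groups of 3. Cells received DMSO, or ethanol (EtOH), or lipopolysaccharide (LPS) by itself, or LPS plus 1 of 3 drugs: cannabidiol (CBD), monomethyl fumarate (MMF) and dimethyl fumarate (DMF). Each of these 6 treatments lasted 4 h or 24 h. LPS, a bacterial cell wall component that activates microglia, was given at 600 ng/mL, DMF and MMF at 30 µM and CBD at 6 µM. The vehicles stood at 0.2%, with DMSO serving DMF and MMF and EtOH serving CBD. LPS came in an aqueous solution, and the methods also name water as a vehicle. Which vehicle LPS alone carried was not given in the sources used here. All cells had their serum lowered to 0.1% just before treatment, there was no group with a drug and no LPS, and a line of this kind is 1 immortalised cell population and not primary microglia.

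NF-kB is a dimer of subunits that rests in the cytoplasm bound to an inhibitor of the IkB family. In the canonical route, receptors such as Tlr4, which senses LPS, activate the IkB kinase complex, made of the catalytic kinases Chuk (IKK alpha) and Ikbkb (IKK beta) and the scaffold Ikbkg (NEMO), and the inhibitor is degraded. In the non-canonical route, Map3k14 (NIK) activates Chuk, and the precursor made from Nfkb2 is cut to p52, the partner of Relb. Ikbke (IKK epsilon) is a related kinase that acts with Tbk1 in the interferon response. These steps are changes of protein state and place, whereas the values here are messenger RNA levels.

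Counted reads per library ran from 14.1 M to 26.7 M over 36 libraries, and every member had at least 260 reads in every library. Of 13 microglia and macrophage markers, 12 had a median normalized count of at least 10 (Csf1r 4625 to 15410 over the libraries). The lowest medians among the 12 were those of P2ry12 (43.5), Aif1 (70.5) and Tmem119 (75.9), and Cx3cr1 was at 9.36 in its lowest library. Sall1, a marker of microglia in the brain, was at 0 in every library. No marker of neurons, astrocytes or fibroblasts had a median of 10. Among the oligodendrocyte markers given here, Mbp exceeded it, whereas Mog and Olig2 had medians of 0. In a bulk sample, fewer expressing cells and less RNA per cell cannot be told apart, which holds for every level below. Between the vehicles, limma called 0 of the 10 members at 4 h and 0 at 24 h, beside 0% and 0.00854% of all genes tested. At unadjusted p below 0.05 it gave 1 member at 4 h (Nfkb2) and 0 at 24 h, edgeR and DESeq2 called 0 members at both times, and over all genes edgeR called 0 and DESeq2 76 at 4 h, where 1051 genes had an unadjusted p below 0.05. With the replicate number as a block, Nfkb2 was higher in DMSO than in EtOH at 4 h, with an adjusted p of 0.0036 (limma). Over all genes, limma with this block called 876 of 11458 at 4 h and 20 of 11715 at 24 h.

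The promoters of 3 members are shown. Relb is the only member with a marked site, Ikbke rose most with LPS and was low with DMF at 4 h, and Ikbkg was highest with DMF at 4 h. Each is the 250 bases upstream of the start of the Ensembl canonical transcript in GRCm39, on the strand of the gene, written 5′ to 3′. Capitals mark a match to the kB consensus, the site that NF-kB dimers bind.
Relb, chr7:19363424-19363673, minus strand: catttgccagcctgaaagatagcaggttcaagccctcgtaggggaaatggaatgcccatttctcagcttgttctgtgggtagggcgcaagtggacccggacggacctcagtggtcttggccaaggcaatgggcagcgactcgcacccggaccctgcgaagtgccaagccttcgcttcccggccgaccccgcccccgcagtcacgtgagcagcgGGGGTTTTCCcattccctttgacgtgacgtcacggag
Ikbke, chr1:131207347-131207596, minus strand: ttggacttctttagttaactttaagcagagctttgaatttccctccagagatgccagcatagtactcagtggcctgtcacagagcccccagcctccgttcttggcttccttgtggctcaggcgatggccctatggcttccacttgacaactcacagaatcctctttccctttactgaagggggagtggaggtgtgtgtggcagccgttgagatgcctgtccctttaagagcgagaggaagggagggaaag
Ikbkg, chrX:73473027-73473276, plus strand: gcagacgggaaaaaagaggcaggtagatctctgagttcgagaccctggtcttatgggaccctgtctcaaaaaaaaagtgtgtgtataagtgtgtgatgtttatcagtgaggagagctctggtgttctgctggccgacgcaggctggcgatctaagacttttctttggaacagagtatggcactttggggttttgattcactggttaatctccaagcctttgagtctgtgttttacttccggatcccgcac
On both strands, the kB consensus occurred in the windows of 1 of the 10 members, Relb, and in 4.23% of 21770 windows of protein coding genes. The match in Relb lies on the strand of the gene, at positions -37 to -28 from the start. Nfkb1, Nfkb2, Rel and Ikbke, which also rose with LPS, had no match in their windows. The core TGACNNNGC of the antioxidant response element, the site of the factor Nrf2, was found in 0 of 10 member windows and in 9.69% of all windows. A match is only a run of letters, and its absence says nothing of sites outside the window or of starts other than the canonical one; exons of Ikbkg begin at 73436216, far upstream of the window shown.

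All members are protein coding. In the coordinates that the files give for GRCm39, Ikbke lies at chr1:131182080-131207344 and Nfkb1 at chr3:135290416-135397308, both on the minus strand. Relb is at chr7:19340142-19363363, Rel at chr11:23686847-23720970 and Map3k14 at chr11:103110588-103158298, again on the minus strand. Chromosome 19 carries Rela (5687511-5698158) and Nfkb2 (46292759-46300824) on the plus strand and Chuk (44061774-44095919) on the minus strand. Ikbkb lies at chr8:23149228-23196605 on the minus strand and Ikbkg at chrX:73436896-73497460 on the plus strand. The annotation puts exons of other protein coding genes on the opposite strand over 1933 bases of the Nfkb2 exons (Psd, 24.5% of them) and over 526 bases (G6pdx, 3.85%) and 204 bases (Fam3a, 1.49%) of the Ikbkg exons. Whether the counting used strand is not given in the sources used here, so reads from these stretches cannot be assigned to 1 gene with certainty. The partners' levels are given beside some of the results they touch, and a result given without them has the same limit.

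Levels below are normalized read counts, the reads of a library divided by its median-of-ratios factor over all 36 libraries, as mean ± SD (n = 3 libraries). Per kilobase of canonical transcript, averaged over the 12 groups, Rela had the highest level at 883, followed by Nfkb1 at 655, Ikbkg at 619.5, Ikbkb at 618, Chuk at 562, Ikbke at 456, Nfkb2 at 345, Relb at 233, Rel at 99.5 and Map3k14 at 99.4. This order depends on the length used: per kilobase of all annotated exons, Ikbkb was at 91.3, below Rel at 99.5. Across the 12 groups, the mean of Ikbke spanned the widest range, 6.03-fold, and that of Nfkb1 was next at 3.04-fold. Relb spanned 2.60-fold, Nfkb2 2.53-fold, Ikbkg 2.06-fold, Map3k14 1.82-fold and Rel 1.79-fold. The narrowest ranges belonged to Ikbkb (1.37-fold), Rela (1.33-fold) and Chuk (1.20-fold).

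**Figure D1:**
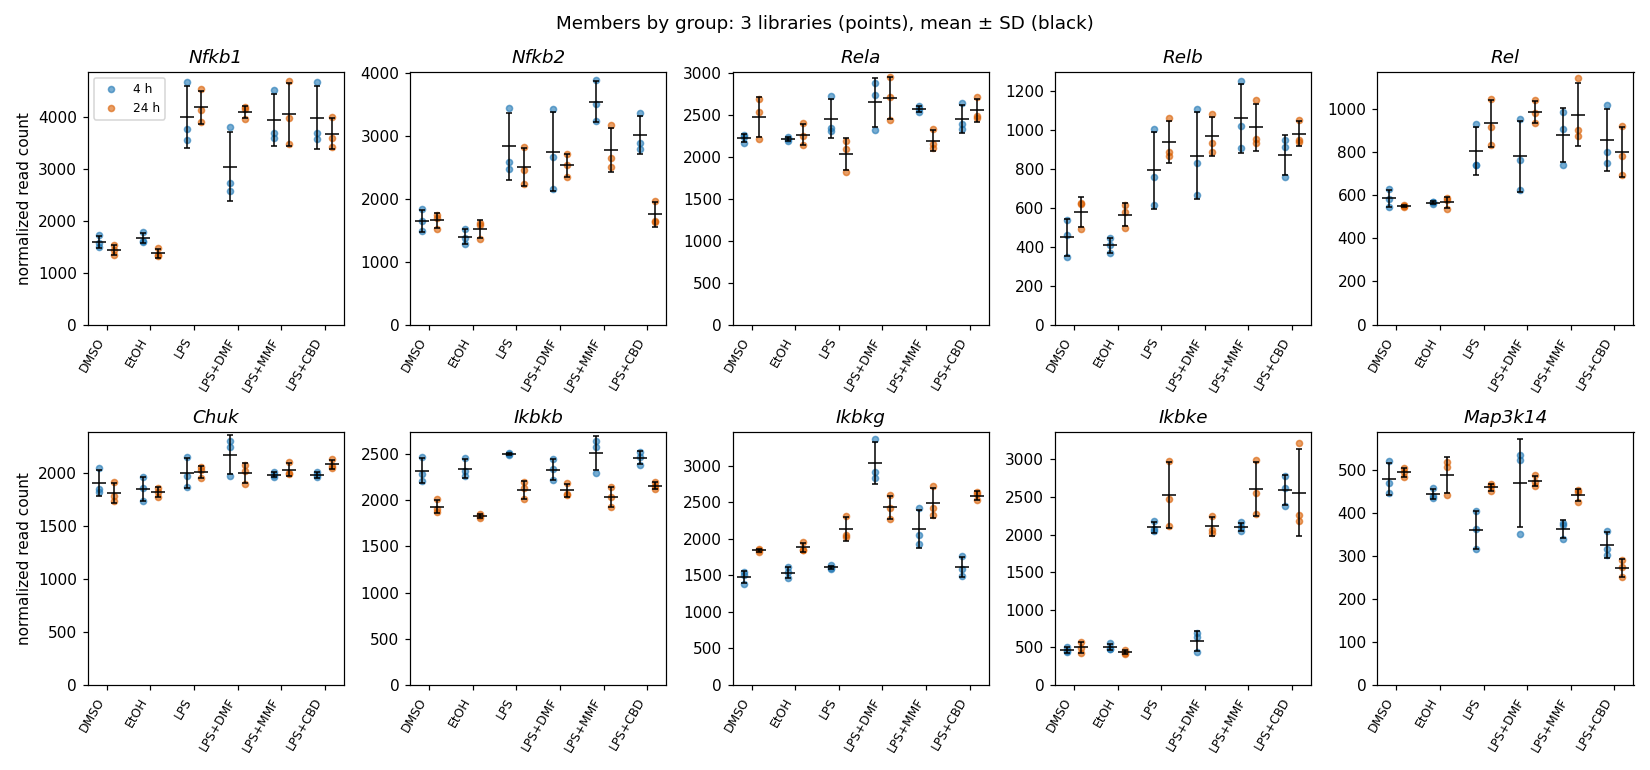
Normalized read count (vertical axis, linear, from 0) of each member in the 6 treatments at 4 h (blue) and 24 h (orange); points are libraries, black bars the mean ± SD of 3. Ikbke stood at 406 to 573 in the vehicle libraries and at 2022 or more in the LPS libraries, except with DMF at 4 h, where it was at 434 to 691.

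LPS raised Ikbke more than any other member. At 4 h the 3 DMSO libraries had 508, 447 and 435 normalized counts of Ikbke, the 3 EtOH libraries 557, 472 and 484, and the 3 LPS libraries 2181, 2047 and 2067. The lowest LPS library was far above the highest vehicle library. The log2 fold change against DMSO was 2.17 (SE 0.08, 4.51-fold, adjusted p = 2.0e-06, limma) and against EtOH it was 2.06 (SE 0.08, 4.17-fold, adjusted p = 6.8e-06). At 24 h the LPS libraries had 2111, 2984 and 2471, the DMSO libraries 431, 493 and 573 and the EtOH libraries 461, 406 and 430. The groups again did not overlap, with log2 fold changes of 2.34 (SE 0.13, adjusted p = 1.5e-06) and 2.54 (SE 0.12, adjusted p = 1.5e-07) against DMSO and EtOH.

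Among the subunits, Nfkb1, Nfkb2, Relb and Rel rose with LPS against both vehicles and at both times, and limma did not call Rela. With Ikbke and, against DMSO at 4 h, a fall of Map3k14, this made 6 of 10 members called at 4 h against DMSO, where 14.1% of all genes tested were called, and 5 of 10 against EtOH (10.2% of all genes). At 24 h it made 5 of 10 against DMSO and 5 of 10 against EtOH, beside 22.7% and 20.5% of all genes. Both comparisons at a time share the same LPS libraries.

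Nfkb1, which encodes p105 and, once processed, p50, moved most among the subunits. Its level at 4 h was 1565, 1715 and 1486 in DMSO, 1612, 1773 and 1598 in EtOH and 3556, 4672 and 3755 in LPS. At 24 h it was 1442, 1525 and 1342 in DMSO, 1330, 1470 and 1321 in EtOH and 3887, 4524 and 4118 in LPS. Every LPS library lay above every vehicle library. The log2 fold change against DMSO was 1.32 (SE 0.11, adjusted p = 0.00018) at 4 h and 1.55 (SE 0.08, adjusted p = 8.2e-07) at 24 h, and against EtOH 1.26 and 1.61.

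Nfkb2, the precursor of p52, and Relb, its usual partner, rose less. Nfkb2 was at 1484, 1834 and 1653 in DMSO, 1287, 1530 and 1385 in EtOH and 2481, 3451 and 2588 in LPS at 4 h. Its log2 fold change at 4 h was 0.76 (SE 0.13, adjusted p = 0.0076) against DMSO and 1.01 (SE 0.13, adjusted p = 0.0025) against EtOH, and at 24 h it was 0.61 and 0.73. Psd, whose exons overlap those of Nfkb2 on the opposite strand, stood at 418.5 to 504 in the LPS libraries and at 356 to 386 in the DMSO libraries at 4 h, and its part in the Nfkb2 values was not tested. Relb was at 348, 536 and 461 in DMSO, 368, 446 and 406 in EtOH and 615, 1005 and 756 in LPS at 4 h. The groups did not overlap although the LPS libraries spread widely, and the log2 fold change was 0.81 (SE 0.20, adjusted p = 0.032) against DMSO and 0.93 (SE 0.17, adjusted p = 0.011) against EtOH. At 24 h, Relb in LPS was at 866, 1062 and 884, with log2 fold changes of 0.71 and 0.74.

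Rel, which encodes c-Rel, went from 581, 628 and 546 in DMSO and 557, 568 and 568 in EtOH to 740, 931 and 739 in LPS at 4 h. The log2 fold change was 0.45 (SE 0.11, adjusted p = 0.031) against DMSO and 0.50 (SE 0.10, adjusted p = 0.018) against EtOH. At 24 h the LPS libraries had 833, 1047 and 917 and the vehicle libraries 536 to 586, with log2 fold changes of 0.77 (SE 0.10) and 0.72 (SE 0.10). Rela, the p65 subunit with a strong activation domain, had 2307, 2721 and 2339 in LPS at 4 h, just above the DMSO libraries at 2165 to 2255, and 1819, 2189 and 2098 at 24 h, below the DMSO libraries at 2212 to 2683. The EtOH libraries were at 2194 to 2238 at 4 h and at 2146 to 2398 at 24 h, where they overlapped those of LPS. The log2 fold change of Rela against DMSO was 0.14 (95% CI -0.04 to 0.32) at 4 h and -0.27 (95% CI -0.48 to -0.06, adjusted p = 0.064) at 24 h, where DESeq2 called it (adjusted p = 0.048).

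By limma, the components of the IkB kinase complex were not called with LPS. EdgeR called Ikbkg against DMSO and Ikbkb against EtOH at 24 h, with adjusted p of 0.048 and 0.046, whereas DESeq2 called none of the 3. Against DMSO at 4 h the log2 fold changes were 0.06 for Chuk (95% CI -0.12 to 0.24), 0.10 for Ikbkb (-0.04 to 0.24) and 0.12 for Ikbkg (-0.04 to 0.28). At 24 h they were 0.17 for Chuk (0.01 to 0.32), 0.14 for Ikbkb (-0.01 to 0.30) and 0.22 for Ikbkg (0.06 to 0.39, adjusted p = 0.055). Map3k14, the kinase of the non-canonical route, was at 447, 520 and 470 in DMSO, 458, 439 and 436 in EtOH and 363, 405 and 316 in LPS at 4 h. The LPS libraries were below every vehicle library, at -0.42 on the log2 scale (SE 0.12, adjusted p = 0.048, or 0.060 with no filter on low values) against DMSO and -0.30 (SE 0.11, adjusted p = 0.11) against EtOH. At 24 h its log2 fold change was -0.09 against DMSO and -0.07 against EtOH, with neither called.

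**Figure D2:**
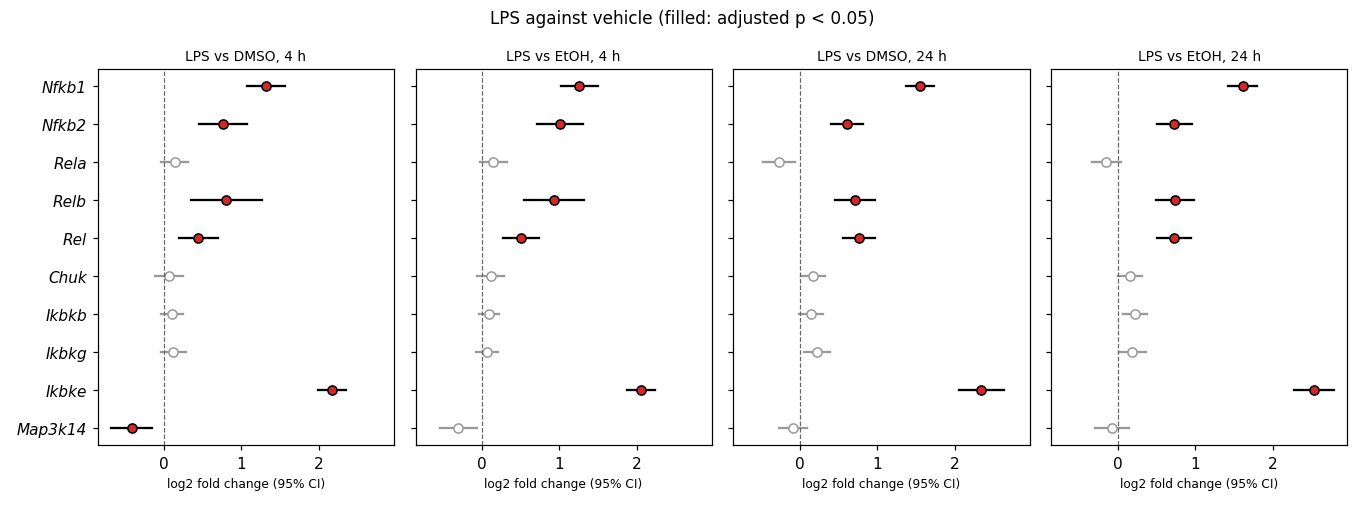
Log2 fold change (horizontal axis, with 95% confidence interval) of each member in LPS against DMSO or EtOH at 4 h and 24 h; filled points have an adjusted p below 0.05. Nfkb1, Nfkb2, Relb, Rel and Ikbke lie to the right of 0 in the 4 panels, and Ikbke lies farthest, at 2.06 to 2.54.

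At 4 h, leaving out any of 4 libraries ended the call of Relb against DMSO (DMSO replicate 4 or 6, LPS replicate 2 or 3, adjusted p = 0.051 to 0.096), any of 3 that of Rel (DMSO replicate 4 or 6, LPS replicate 3, 0.062 to 0.13) and any of 5 that of Map3k14 (DMSO replicates 4, 5 and 6, LPS replicates 1 and 3, 0.065 to 0.17). Against EtOH at 4 h, the calls of Relb (0.052 and 0.057) and Rel (0.073 and 0.079) were lost without EtOH replicate 4 or 6, and that of Map3k14 was gained without LPS replicate 2 (0.035). The change of the LPS effect from 4 h to 24 h was called for 0 of 10 members against DMSO and 0 of 10 against EtOH by limma, beside 9.36% and 9.05% of all genes. At unadjusted p below 0.05 there were 2 and 3 members, edgeR called 0 in both, and DESeq2 called 1 in each. These were Rela against DMSO (limma difference -0.41, SE 0.13, adjusted p = 0.063) and Ikbke against EtOH (0.48, SE 0.15, adjusted p = 0.066). Without DMSO replicate 4 at 24 h the Rela difference was -0.48 (adjusted p = 0.036), and without LPS replicate 1 at 24 h that of Ikbke was 0.60 (adjusted p = 0.018). Against EtOH, that of Nfkb1 was 0.47 (adjusted p = 0.017) without LPS replicate 2 at 4 h. At 24 h, Rela was called against DMSO without DMSO replicate 4 or LPS replicate 2 (-0.35 and -0.33, adjusted p = 0.027 and 0.026), and without LPS replicate 1 so were Ikbkg against DMSO (0.26, 0.049) and Ikbkb against EtOH (0.25, 0.045).

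With DMF at 4 h, Ikbke was near its vehicle level despite LPS and Ikbkg was higher than in any other group, while the other 8 members were not called. The 3 libraries with LPS and DMF had 691, 632 and 434 normalized counts of Ikbke, against 2047 to 2181 with LPS alone. The log2 fold change was -1.87 (SE 0.16, 0.274-fold, adjusted p = 0.00020, limma), with no overlap. Against DMSO, these libraries overlapped the vehicle libraries and differed by 0.31 on the log2 scale (95% CI -0.06 to 0.68, adjusted p = 0.20), or by 0.51 (adjusted p = 0.025) without the DMF library of replicate 3, the lowest. Ikbkg, the scaffold of the IkB kinase complex, had 2920, 3360 and 2827 with DMF and 1590, 1635 and 1599 with LPS alone. Its log2 fold change was 0.91 (SE 0.09, 1.88-fold, adjusted p = 0.00048), and against DMSO it was 1.03 (SE 0.09, adjusted p = 1.0e-04). G6pdx, whose exons overlap 3.85% of those of Ikbkg on the opposite strand, was at 8496 to 8938 with DMF and at 5375 to 6403 with LPS alone, and Fam3a was at 244 to 274 and 250.2 to 264. The part of G6pdx in the Ikbkg values was not tested.

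These were 2 of 10 members called against LPS alone at 4 h, where 11.1% of all genes tested were called. Nfkb1 had 2577, 3794 and 2724 with DMF against 3556, 4672 and 3755 with LPS alone. In each numbered pair the DMF library was the lower, but the groups overlapped, and the log2 fold change of -0.41 (SE 0.16) had an adjusted p of 0.15. With the replicate number as a block it was called, with an adjusted p of 0.012, as it was without the DMF library of replicate 2 (-0.59, adjusted p = 0.017). Map3k14 (0.36, adjusted p = 0.26) was called without the DMF library of replicate 1 (0.56, adjusted p = 0.034). The other subunits had log2 fold changes of -0.06 (Nfkb2), 0.10 (Rela), 0.13 (Relb) and -0.06 (Rel), the widest 95% CI being that of Relb, -0.36 to 0.61. Against DMSO, Nfkb1 (0.91), Nfkb2 (0.71), Relb (0.93) and Ikbkg were called with LPS and DMF, 4 of 10 members beside 23.5% of all genes. Without the DMF library of replicate 1, Rel (0.54, adjusted p = 0.017) and Rela (0.33, adjusted p = 0.010) were called as well. Psd stood at 591 to 959 with LPS and DMF at 4 h, above the next highest group, LPS with MMF at 4 h, at 541 to 561, while Nfkb2 was at 2164, 3425 and 2676.

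At 24 h, Ikbke with DMF was at 2058, 2022 and 2251, against 2111, 2984 and 2471 with LPS alone. The log2 fold change was -0.25 (SE 0.11, adjusted p = 0.12, and 0.046 with replicate blocks). Ikbkg was at 2421, 2595 and 2270 with DMF and 2028, 2318 and 2050 with LPS alone, a log2 difference of 0.19 (adjusted p = 0.11, and 0.020 with the block). G6pdx was at 6558 to 7291 with DMF and at 4848 to 6205 with LPS alone, and its part in the Ikbkg values was not tested. Rela was the member called, at 2444, 2949 and 2713 with DMF against 1819, 2189 and 2098 with LPS alone. Its log2 fold change was 0.41 (SE 0.09, 1.33-fold, adjusted p = 0.0096), and every DMF library lay above every LPS library. That is 1 of 10 members beside 25.1% of all genes. With the block it was 3 of 10 members, beside 4566 of 11670 genes. Without LPS replicate 2, Ikbkg was also called (0.24, adjusted p = 0.039), and without LPS replicate 1, Ikbke (-0.36, adjusted p = 0.026). Against DMSO at 24 h, 6 of 10 members were higher with LPS and DMF (Nfkb1 1.53, Nfkb2 0.63, Relb 0.76, Rel 0.86, Ikbkg 0.42 and Ikbke 2.11), beside 40.2% of all genes, and Chuk (0.20, adjusted p = 0.048) was called without DMSO replicate 4.

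The DMF effect itself differed between the times for 2 of 10 members, where 16.4% of all genes did. For Ikbke the effect at 24 h minus that at 4 h was 1.62 on the log2 scale (SE 0.21, adjusted p = 0.00018), and for Ikbkg it was -0.73 (SE 0.12, adjusted p = 0.0013). Blocking by replicate number, the differences of Nfkb1 (adjusted p = 0.048) and Rela (0.035) were called as well, although numbers did not pair the DMF libraries across the times. With the block, 2789 of 11909 genes were called. Without the DMF library of replicate 2 at 4 h, that of Nfkb1 was 0.55 (adjusted p = 0.019), and without that of replicate 1 that of Map3k14 was -0.52 (adjusted p = 0.024).

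**Figure D3:**
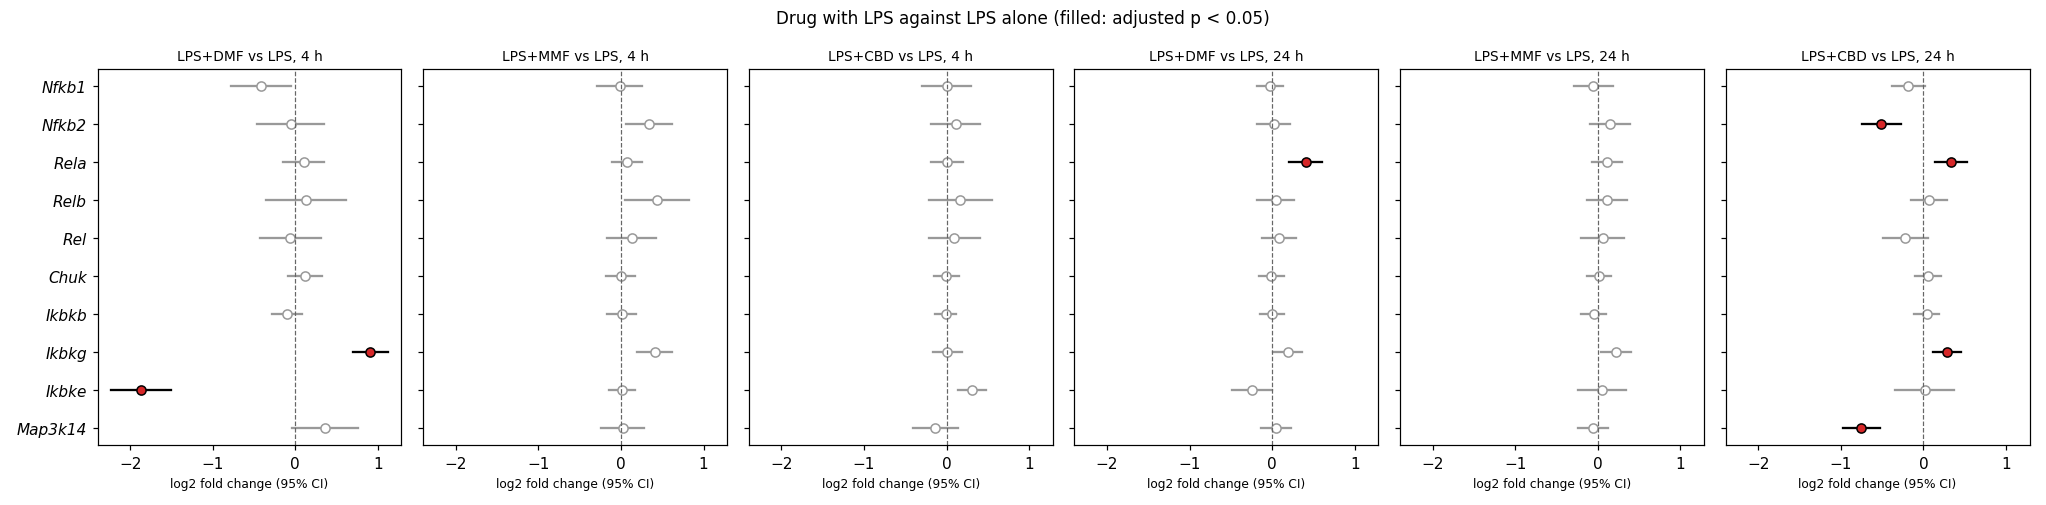
Log2 fold change (horizontal axis, with 95% confidence interval) of each member in LPS plus DMF, MMF or CBD against LPS alone at 4 h and 24 h, all panels on 1 scale; filled points have an adjusted p below 0.05. The farthest points are Ikbke at -1.87 and Ikbkg at 0.91 with DMF at 4 h, and Map3k14 at -0.75 with CBD at 24 h.

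MMF, the monomethyl ester of fumaric acid, differs from DMF, the dimethyl ester, by a single methyl group, and both were given at 30 µM. Against LPS alone, limma called 0 of 10 members with MMF at 4 h and 0 of 10 at 24 h, beside 0.122% and 0% of all genes. There were 3 members at unadjusted p below 0.05 at 4 h and 1 at 24 h, and edgeR and DESeq2 called 0 members at either time. Over all genes at 24 h, 440 had an unadjusted p below 0.05, edgeR called 0 and DESeq2 14. Ikbke with MMF was at 2161, 2046 and 2096 at 4 h, beside 2047 to 2181 with LPS alone, with a log2 fold change of 0.01 (95% CI -0.15 to 0.16). Ikbkg with MMF was at 2052, 2425 and 1928 at 4 h, above the 1590 to 1635 of LPS alone, but the log2 fold change of 0.41 (95% CI 0.20 to 0.62) had an adjusted p of 0.33. Nfkb2, at 0.34, was called without LPS replicate 2 at 4 h (0.49, adjusted p = 0.049). At 24 h the log2 fold change of Ikbkg was 0.22 (95% CI 0.04 to 0.41), with an adjusted p that rounds to 1, or 0.017 with the replicate number as a block. G6pdx with MMF was at 5934 to 6736 at 4 h, overlapping the 5375 to 6403 of LPS alone, and at 6939 to 7553 at 24 h, above the 4848 to 6205 of LPS alone. The change of the MMF effect between the times was called for 0 of 10 members by limma, edgeR and DESeq2, with 0 at unadjusted p below 0.05, beside 0% of all genes (384 at unadjusted p below 0.05, and 0 called by edgeR and by DESeq2).

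The 2 fumarates were compared directly over 20 pairs, 10 members at 2 times, with p-values adjusted over all genes of each table. At 4 h, Ikbke was lower with DMF than with MMF, at -1.87 on the log2 scale (SE 0.15, adjusted p = 0.00021) and Ikbkg was higher by 0.50 (SE 0.11, adjusted p = 0.022), 2 of 10 members beside 8.34% of all genes. The Ikbkg call was lost without the MMF library of replicate 1 (0.48, adjusted p = 0.083) or 3 (0.43, 0.10) or the DMF library of replicate 3 (0.56, 0.060). Without the DMF library of replicate 2, Nfkb1 (-0.57, adjusted p = 0.0070), Nfkb2 (-0.57, 0.0080) and Relb (-0.51, 0.041) were called, and without that of replicate 1 Map3k14 (0.54, 0.021). For the other members the log2 difference of DMF from MMF lay between -0.39 (Nfkb1, 95% CI -0.73 to -0.06, and Nfkb2, with the same interval) and 0.34 (Map3k14, -0.02 to 0.70). At 24 h, Rela was higher with DMF by 0.30 (SE 0.08, adjusted p = 0.026) and Ikbke lower by -0.30 (SE 0.09, adjusted p = 0.048), 2 of 10 members beside 21.5% of all genes. Each of these calls was lost when single libraries were left out, Rela without MMF replicate 1 or 3 or DMF replicate 2 or 3 (0.086 to 0.099) and Ikbke without MMF replicate 2 or 3 or any DMF library (0.083 to 0.13). The remaining 8 differences at 24 h lay between -0.13 (Nfkb2, 95% CI -0.34 to 0.08) and 0.10 (Map3k14, -0.07 to 0.27). Against DMSO, MMF with LPS gave 7 of 10 members called at 4 h (8.22% of all genes) and 6 of 10 at 24 h (22.4% of all genes). Those at 4 h were Nfkb1 (1.30), Nfkb2 (1.10), Relb (1.25), Rel (0.58), Ikbkg (0.53), Ikbke (2.18) and Map3k14 (-0.40), and those at 24 h were Nfkb1 (1.50), Nfkb2 (0.76), Relb (0.83), Rel (0.83), Ikbkg (0.45) and Ikbke (2.40). Leaving out 1 library ended the calls at 4 h of Rel (without DMSO replicate 6 or MMF replicate 3, adjusted p = 0.079 and 0.062) and Map3k14 (without DMSO replicate 5 or 6 or any MMF library, 0.072 to 0.13). The log2 fold changes in these fits were 0.53 and 0.55 for Rel and -0.33 to -0.42 for Map3k14.

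With CBD, a plant cannabinoid that does not share the fumarate structure and was given at 6 µM, Map3k14 and Nfkb2, both of the non-canonical route, were lower at 24 h. Map3k14 was at 274, 292 and 250 with CBD and at 462, 451 and 467 with LPS alone. The log2 fold change was -0.75 (SE 0.10, 0.593-fold, adjusted p = 0.00027, limma), and the CBD libraries at 24 h were below every other library of the series. Nfkb2 was at 1647, 1974 and 1639 with CBD and at 2234, 2826 and 2463 with LPS alone. Its log2 fold change was -0.51 (SE 0.11, 0.702-fold, adjusted p = 0.0034), without overlap. Relb, the usual partner of the Nfkb2 product, was at 950, 1052 and 936 with CBD against 866, 1062 and 884, a log2 fold change of 0.07 (95% CI -0.15 to 0.29). Psd was at 292 to 321 with CBD and at 356 to 369.6 with LPS alone at 24 h, and its part in the Nfkb2 values was not tested.

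Rela and Ikbkg were higher with CBD at 24 h. Rela had 2468, 2484 and 2709 against 1819, 2189 and 2098 with LPS alone, which is 0.33 on the log2 scale (SE 0.09, adjusted p = 0.011). Ikbkg had 2637, 2525 and 2611 against 2028, 2318 and 2050, or 0.29 on the log2 scale (SE 0.08, adjusted p = 0.012), a call lost without LPS replicate 3 (0.26, adjusted p = 0.057). G6pdx was at 6181 to 6934 with CBD and 4848 to 6205 with LPS alone, and the groups overlapped. Ikbke, at 2257, 3222 and 2184 with CBD, differed from LPS alone by 0.01 (95% CI -0.35 to 0.37). In all, 4 of 10 members were called, beside 48.7% of all genes. With the replicate number as a block, Nfkb1 (-0.18, adjusted p = 0.029) and Rel (-0.22, adjusted p = 0.022) were called too, as they were without the CBD library of replicate 2 (-0.25 and -0.33, adjusted p = 0.049 and 0.041).

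At 4 h, limma called 0 of 10 members with CBD against LPS alone, beside 0.00875% of all genes, and edgeR and DESeq2 called 0 members. Ikbke alone had an unadjusted p below 0.05, at 2620, 2784 and 2385 with CBD against 2047 to 2181, a log2 fold change of 0.31 (95% CI 0.14 to 0.48, adjusted p = 0.99). The CBD effect differed between the times for Nfkb2 and Map3k14, by -0.61 (SE 0.18, adjusted p = 0.018) and -0.61 (SE 0.15, adjusted p = 0.0080), 2 of 10 members beside 31.9% of all genes. The Nfkb2 difference had an adjusted p of 0.051 without LPS replicate 3 at 4 h. The differences of Rela (0.33, adjusted p = 0.053) and Ikbkg (0.28, adjusted p = 0.051) were called with the block (0.019 and 0.027), as was that of Rel (-0.31, adjusted p = 0.020 with the block). Numbers did not pair the CBD libraries across the times. Single left-out libraries also brought in Rela and Ikbkg, for example without LPS replicate 2 at 24 h (0.39 and 0.34, adjusted p = 0.035 and 0.020), and leaving out the CBD library of replicate 2 at 24 h brought in Ikbke (-0.47, adjusted p = 0.036).

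Against EtOH, CBD with LPS gave 6 of 10 members called at 4 h (13.6% of all genes) and 8 of 10 at 24 h (50.5% of all genes). At 24 h, Nfkb2 was not among them, at a log2 fold change of 0.21 (95% CI -0.02 to 0.44, adjusted p = 0.12), while Map3k14 was lower (-0.84, adjusted p = 0.00018) and Nfkb1 (1.42), Relb (0.81), Rel (0.49), Ikbkb (0.25), Ikbkg (0.47), Ikbke (2.54) and Chuk (0.20) were higher. The call of Chuk, the only one of this gene over the 30 pairs of groups, was lost without EtOH replicate 5 or 6 or CBD replicate 1 or 2 (adjusted p = 0.058 to 0.12). At 4 h the 6 were Nfkb1 (1.26), Nfkb2 (1.12), Relb (1.10), Rel (0.60), Ikbke (2.37) and Map3k14 (-0.44), the last with an adjusted p of 0.051 without EtOH replicate 4.

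CBD differed from the fumarates in dose and in vehicle, so the tables that pair them give values side by side. At 4 h, CBD against DMF had Ikbke at 2.18 and Ikbkg at -0.90 on the log2 scale, 2 of 10 members called beside 15.5% of all genes, with Nfkb1 (0.42, adjusted p = 0.0039) added by the block. Without the DMF library of replicate 2, Nfkb1 was at 0.60 (adjusted p = 0.0081), and without that of replicate 1 Map3k14 was called (-0.69, adjusted p = 0.0051). CBD against MMF at 4 h had 0 of 10 by limma, edgeR and DESeq2, with 3 at unadjusted p below 0.05, beside 0.166% of all genes. The block called 4 there, Nfkb2 (-0.23), Relb (-0.27), Ikbkg (-0.40) and Ikbke (0.31), with adjusted p of 0.0038, 0.0047, 1.1e-06 and 8.7e-05. Over all genes the block called 889 of 11432 in that comparison. At 24 h, Map3k14 was at -0.80 against DMF and -0.70 against MMF and Nfkb2 at -0.54 and -0.66. With Rel (-0.31) against DMF and Rela (0.22) against MMF this made 3 of 10 members called in each, beside 38.5% and 48.3% of all genes, and the block added Rel (-0.28, adjusted p = 0.0055) against MMF. The call of Rel against DMF was lost without any DMF library or CBD replicate 1 or 3 (adjusted p = 0.067 to 0.15) and under TMM scaling (0.052), and that of Rela against MMF without MMF replicate 1 or 3 or CBD replicate 3 (0.090 to 0.11). Without the CBD library of replicate 2, Nfkb1 was called against DMF (-0.23, adjusted p = 0.029) and Rel against MMF (-0.39, 0.025).

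Between 4 h and 24 h, Ikbkb, the main catalytic kinase of the canonical route, fell and Ikbkg rose in most treatments, vehicles included. Ikbkb was at 2208 to 2471 in DMSO and 2258 to 2454 in EtOH at 4 h and at 1870 to 2010 and 1804 to 1851 at 24 h. Its log2 change was -0.29 (SE 0.07) in DMSO, -0.38 (SE 0.06) in EtOH, -0.25 (SE 0.07) in LPS, -0.31 (SE 0.08) with MMF and -0.20 (SE 0.06) with CBD, each called, and -0.15 (SE 0.08, adjusted p = 0.12) with DMF. Ikbkg changed by 0.30 in DMSO, 0.27 in EtOH, 0.40 in LPS and 0.68 with CBD, each called, by 0.22 with MMF (adjusted p = 0.083) and by -0.33 with DMF (SE 0.09, adjusted p = 0.012), where it fell from its level at 4 h. G6pdx was lower at the later time in the vehicles, with libraries at 4932 to 6368 in DMSO and 5445 to 6432 in EtOH at 4 h and at 4487 to 4849 and 4204 to 4687 at 24 h. With CBD, G6pdx was at 5390 to 5813 at 4 h and higher, at 6181 to 6934, at 24 h. With MMF it was at 5934 to 6736 and then higher, at 6939 to 7553, and with DMF at 8496 to 8938 and then lower, at 6558 to 7291. In LPS alone the times overlapped, at 5375 to 6403 and 4848 to 6205. The part of G6pdx in these Ikbkg changes was not tested.

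Of the other members, Ikbke changed most over time with DMF, by 1.87 (SE 0.15, 3.65-fold, adjusted p = 8.7e-06), and Nfkb2 most with CBD, by -0.79 (SE 0.10, adjusted p = 6.8e-05). Psd with CBD was at 436 to 536 at 4 h and at 292 to 321 at 24 h, and with MMF at 541 to 561 and at 380 to 429. Its part in the Nfkb2 changes over time was not tested. Rela fell between the times in LPS (-0.28, adjusted p = 0.038) and with MMF (-0.24, adjusted p = 0.020), and its log2 changes were 0.02 with DMF and 0.05 with CBD. Map3k14 rose in LPS (0.35, adjusted p = 0.025) and with MMF (0.28, adjusted p = 0.033, or 0.052 by DESeq2) and was at -0.27 with CBD (adjusted p = 0.060). Nfkb1 fell in EtOH (-0.29) and rose with DMF (0.45), Relb rose in EtOH (0.45), Rel rose with DMF (0.35, adjusted p = 0.049, or 0.051 by edgeR), and with MMF Nfkb2 fell (-0.36) and Ikbke rose (0.30). The members called were 2 of 10 in DMSO (51.6% of all genes), 4 in EtOH (58.6%), 4 with DMF (58.8%), 5 with MMF (49.5%), 3 with CBD (63.2%) and 4 with LPS alone (48.9%). The block added Relb in LPS (0.26, adjusted p = 0.049) and Ikbkg with MMF (adjusted p = 0.012).

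Among these changes over time, leaving out 1 library ended several calls. They were those of Rela in LPS (without LPS replicate 2 or 3 at 4 h or 1 or 3 at 24 h, adjusted p = 0.069 to 0.13), Ikbkb in LPS (replicate 3 at 4 h, 1 or 3 at 24 h, 0.053 to 0.076) and with CBD (replicate 1 at either time, 0.057 and 0.075), and Map3k14 in LPS (replicate 1 or 3 at either time, 0.051 to 0.13). With DMF they were Nfkb1 (replicate 3 at 4 h, 0.058), Rel (replicate 1 or 3 at 4 h or any at 24 h, 0.071 to 0.14) and Ikbkg (replicate 3 at 24 h, 0.066). With MMF they were Nfkb2 (0.052 and 0.054), Rela (0.076 and 0.083), Ikbke (0.052 to 0.078) and Map3k14 (0.052 to 0.11), lost without MMF replicate 3 at 4 h or 1 at 24 h (Nfkb2), 1 or 3 at 24 h (Rela), 2 or 3 at either time (Ikbke), and 1 or 2 at 4 h or any at 24 h (Map3k14). Calls were gained for Relb and Rela in DMSO (without replicate 5 at 4 h or 4 at 24 h, adjusted p = 0.0090 to 0.036), Ikbke in EtOH (replicate 5 at 4 h or 4 at 24 h, 0.038), Relb, Rel and Ikbke in LPS (replicate 2 at 4 h or 1 at 24 h, 0.011 to 0.027) and Relb with DMF (replicate 2 at 4 h, 0.025). With MMF the gain was Ikbkg (replicate 2 at 4 h, 0.015), and with CBD they were Map3k14 (replicate 2 at 4 h, 0.048) and Ikbke (replicate 2 at 24 h, 0.035).

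**Figure D4:**
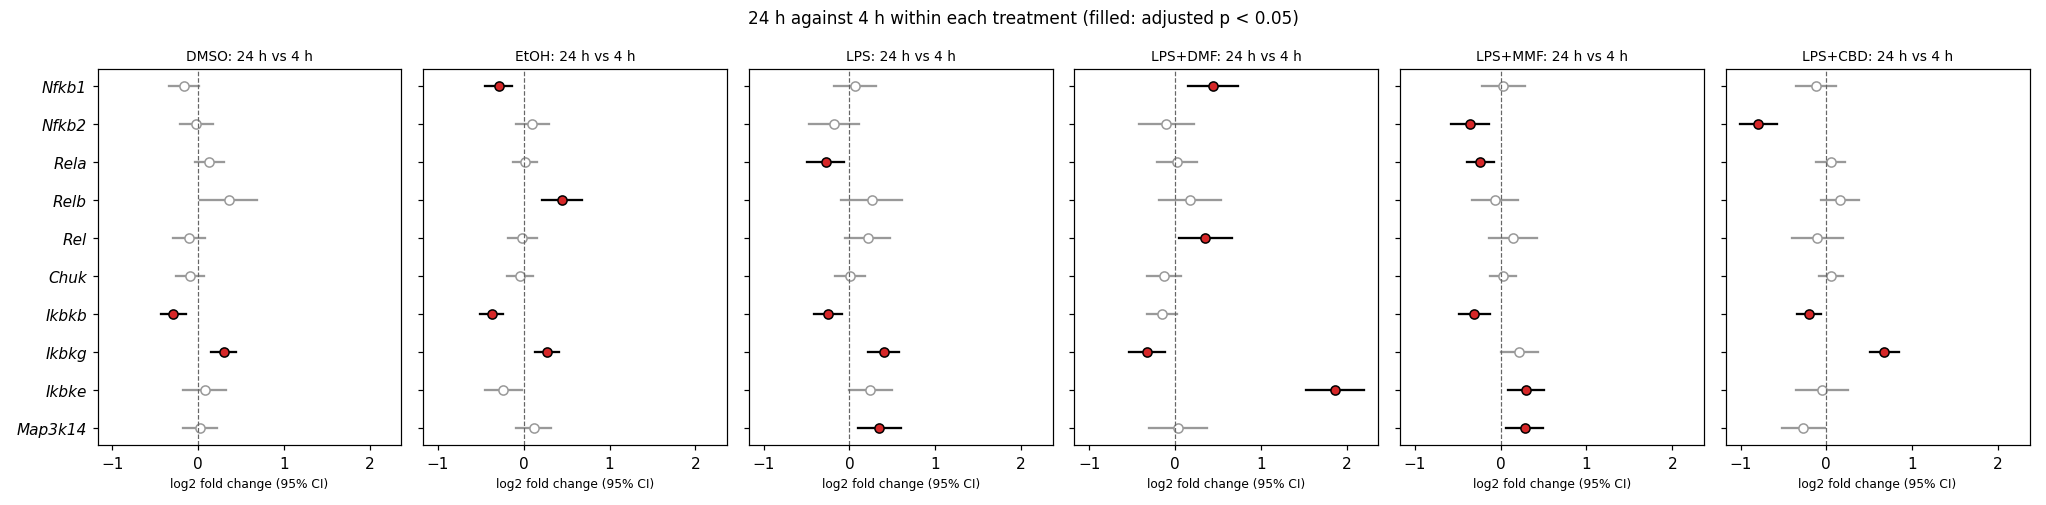
Log2 fold change (horizontal axis, with 95% confidence interval) of each member at 24 h against 4 h within each of the 6 treatments, all panels on 1 scale; filled points have an adjusted p below 0.05. Ikbkb lies at -0.15 to -0.38 in the 6 panels, and Ikbke with DMF, at 1.87, lies farthest from 0.

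The order of the 12 group means showed some of the same features without a test. Gaps between groups and the highest library of a group were not counted over all genes. Whether they are usual among genes is thus not known. For Ikbke, 7 of the 8 groups with LPS came first, and the range of the lowest of them, LPS alone at 4 h, did not overlap that of the next, LPS with DMF at 4 h. Below that gap the DMF group at 4 h and the 4 vehicle groups overlapped each neighbour. For Nfkb1 the gap lay between LPS with DMF at 4 h and EtOH at 4 h, and for Nfkb2 between LPS alone at 24 h and LPS with CBD at 24 h. Map3k14 had gaps below LPS with MMF at 24 h and above LPS with CBD at 24 h. Ikbkg had 3, directly below LPS with DMF at 4 h, the highest group, below LPS alone at 24 h and below DMSO at 24 h. Ikbkb had 2, below DMSO at 4 h and below DMSO at 24 h. Rel had 1, between the vehicle groups EtOH at 4 h and DMSO at 24 h. For Rela, Relb and Chuk, all 11 neighbouring groups overlapped. The library numbered 2 was the highest of its group in 7 of 8 groups with LPS for Nfkb1, Nfkb2, Rela, Relb and Ikbkg, and in 8 of 8 for Rel. Among the vehicle groups, number 5 was the highest in 4 of 4 for Nfkb1 and Nfkb2 and in 3 of 4 for Relb and Rel. It was the highest in 2 of 4 for Ikbkg and 1 of 4 for Rela.

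Other genes of the pathway were followed as lists chosen from general knowledge with earlier results of these data known, so their counts are a description. Beside them, limma called 14.1% of all genes with LPS against DMSO at 4 h and 22.7% at 24 h. Against LPS alone it called 11.1% of all genes with DMF at 4 h, 25.1% with DMF at 24 h and 48.7% with CBD at 24 h. Of 6 genes of the IkB family, the inhibitors and nuclear relatives that bind NF-kB, 5 rose with LPS against DMSO at 4 h and 6 at 24 h, with list medians of 1.24 and 1.21 beside medians of 0.00 and 0.01 over all genes. The largest changes at 4 h were those of Nfkbiz (2.85, SE 0.14) and Bcl3 (1.73, SE 0.28). With DMF at 4 h, 4 of the 6 fell against LPS alone, with a median of -0.78, among them Bcl3 (-1.32, adjusted p = 0.036) and Nfkbie (-1.14, adjusted p = 0.021). At 24 h with DMF limma, edgeR and DESeq2 called 0 of the 6, with 1 at unadjusted p below 0.05, and with CBD 2 rose and 2 fell, with Nfkbib at 0.85 and Nfkbid at -0.88. Of 10 target genes that NF-kB is known to drive, 9 rose with LPS at 4 h, Il1b by 6.58 and Cxcl2 by 5.67, and with DMF at 4 h 6 fell and 1 rose, with Nos2 at -3.81 and Il1b at -3.09. With DMF at 24 h, 4 of the 10 were higher than with LPS alone and 0 were lower, with a median of 0.17. With CBD at 24 h, 4 of the 10 rose and 5 fell, with Ccl2 at 2.29 and Il1b at -3.50.

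Upstream of the IkB kinases, 3 of 16 tested genes of the 17 receptors and adaptors rose with LPS at 4 h and none fell, with a median of 0.01. This stood beside 14.1% of all genes called. The largest rises were those of Irak2 (1.66) and Cd14 (0.99), the co-receptor of LPS. With DMF at 4 h, 3 fell and 1 rose, Irak2 by -0.81 and Cd14 by -0.46. Of 8 adaptors and receptors of the non-canonical route, 4 rose with LPS at 4 h, Traf1 by 2.93 and Cd40 by 1.76, and with DMF at 4 h Cd40 fell by 1.15 on the log2 scale and the other 7 were not called. With CBD at 24 h, 2 of these 8 rose, Cd40 (1.01) and Tnfrsf1b (0.49), and 2 fell, close to the 48.7% of all genes called. Of 4 partners of Ikbke, Tank (0.48) and Azi2 (0.36) rose with LPS at 4 h, and with DMF limma and edgeR called 0 of 4 at either time, with 2 at unadjusted p below 0.05 at each, and DESeq2 0 at 4 h and 1 at 24 h. Of 10 enzymes and adaptors that end NF-kB signalling, 3 rose and 1 fell with LPS at 4 h, led by Tnip1 (1.63) and Tnfaip3 (1.34), and 3 fell and 1 rose with DMF at 4 h, with Tnip1 at -0.99 and Tnfaip3 at -1.02. Over the 6 lists together, limma, edgeR and DESeq2 called 0 of 54 tested genes against LPS alone with MMF at 4 h, MMF at 24 h and CBD at 4 h, with 5, 6 and 1 at unadjusted p below 0.05. Limma called 0.122%, 0% and 0.00875% of all genes in these comparisons.

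As a description over the 12 group means of log2 levels, with no test and with libraries shared by all genes, the members' patterns were set beside those of 10096 genes with a mean of at least 50. Among the members the most alike were Nfkb1 and Rel (Pearson r = 0.965) and Nfkb1 and Ikbke (0.932), and the least alike were Ikbke and Map3k14 (-0.614). The genes nearest to Ikbke were Dram1 (0.979) and Cebpd (0.973), those nearest to Nfkb1 were Cpd and Il36a (both 0.990), and those nearest to Relb were Tnfrsf1b (0.975) and Cxcl2 (0.965). Nearest to Ikbkg were Pir (0.972) and Mafg (0.960), nearest to Nfkb2 were Dvl1 (0.959) and Rsrc2 (0.949), and near to Map3k14 was Doc2g (0.944). For Rel they were Pou2f2 (0.975) and Cpd (0.974), for Ikbkb Gpn1 (0.982) and Mrps27 (0.976), for Chuk Clec4d (0.932) and Afp (0.929), and for Rela Ube2j1 (0.888) and B4galt5 (0.876).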

How the data were processed

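Poly(A) RNA-seq libraries of BV-2 cells were trimmed by the authors with Cutadapt 4.4 and Trimmomatic 0.39 and aligned with HISAT2 2.2.1 to GRCm39. Reads were counted per Ensembl gene with HTSeq 2.0.3 and normalized with DESeq2 1.40.2, as the methods and the submitters' processing notes give it. The authors deposited 30 tables, 1 per pair of groups, with a signal per library that is the count divided by a size factor of that table. The tables also hold the authors' fold changes, p-values and statistics, which were not used. Whole reads were recovered (100% of 2677846 values within 0.01 of a whole number), from 154 of 180 library columns.

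Members are the rows whose symbol is one of the 10 names, all named in each comparison in which they were called. In each list the 2 called genes with the largest change could be named, and for each member the 2 genes of most similar pattern; 1 such gene and 1 cell type marker are not reported here. Members and lists were chosen with earlier results of these data known. Each comparison was tested with limma 3.58.1 (R 4.3.3, trend) on log2 of the deposited value plus 1, on its own 6 libraries, for genes at 10 or more in at least 3 of them, with calls at p below 0.05 after Benjamini-Hochberg adjustment over all genes. A count of members is read against the percentage of all genes called. Changes of an effect over time were interaction terms on 12 libraries. Alternatives were edgeR 4.0.16, DESeq2 1.42.0, TMM scaling, a pseudocount of 0.5, no filter, 1 fit of 36 libraries, the replicate number as a block and leaving out each library. The code of the fits was tried on simulated counts with a fixed dispersion and no shared replicate effects, which does not test the spread of these libraries. Same-numbered libraries were taken as paired where each of 3 correlations of their deviations from the group means (10096 genes) exceeded 0.1. This held in 14 of 20 pairs of groups with shared numbers, the exceptions being MMF against LPS and DMF against MMF at 4 h and the change over time in DMSO, EtOH, DMF and CBD. The methods give 3 repeats of each experiment, but no label says that they were separate cultures or ties a number to a day, so p-values measure the spread between these libraries, which may be technical. Positions, transcript lengths and promoters came from GENCODE vM39 and the GRCm39 genome. Confidence intervals are those of the fits.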

Additional observations from a re-analysis of the deposited data

Results flagged for a closer look

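The effect of DMF against LPS alone differed between 4 h and 24 h for 2 members by the interaction term in limma. For Ikbke the difference was 1.62 on the log2 scale (SE 0.21, adjusted p = 0.00018), from an effect of -1.87 at 4 h to one of -0.25 at 24 h. For Ikbkg it was -0.73 (SE 0.12, adjusted p = 0.0013), from 0.91 to 0.19.

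The effect of CBD against LPS alone differed between the times for Nfkb2 by -0.61 (SE 0.18, adjusted p = 0.018), from 0.11 at 4 h to -0.51 at 24 h. For Map3k14 the difference was also -0.61 (SE 0.15, adjusted p = 0.0080), from -0.14 to -0.75. With 3 libraries a group, no single library was tested for standing apart.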

How the results depend on the processing

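No member changed sign under an alternative while called in either fit. Of 350 values each, edgeR left 347 on the same side of the threshold, DESeq2 341, TMM scaling 346, no filter 347 and a pseudocount of 0.5 all 350. The fit of 36 libraries left 279 of 300, and leaving out 1 library 2270 of 2400, with 83 calls lost and 47 gained. The cause of these moves was not tested, beyond the smaller number of libraries. The replicate block lost no call and added 26 among 230 values. Over all genes, too, it called more than limma without it in every comparison in which it was run. Beyond those given in the report, the block changed no call of a member where numbers paired the libraries.

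Of the counts of members called, the following moved by over 1.5 times. In 1 fit of 36 libraries, DMF against LPS at 4 h gave 4 instead of 2 (Nfkb1 and Map3k14 added), MMF against LPS at 4 h 1 instead of 0 (Ikbkg), DMF against DMSO at 4 h 7 instead of 4 (Rela, Rel and Chuk), DMF against MMF at 4 h 5 instead of 2, CBD against DMF at 4 h 4 instead of 2, CBD against MMF at 4 h 1 instead of 0, and DMF against MMF at 24 h 1 instead of 2. With the replicate block, where the numbers pair the libraries, the counts were 4 instead of 0 in CBD against MMF at 4 h, 1 instead of 0 in DMSO against EtOH at 4 h, 3 instead of 1 in DMF against LPS at 24 h and 1 instead of 0 in MMF against LPS at 24 h. Over all genes the block called 889, 876, 4566 and 206 in these, in that order, instead of 19, 0, 2926 and 0. In the changes of the DMF and CBD effects over time the block gave 4 and 5 instead of 2 and 2, beside 2789 of 11909 and 4755 of 11959 genes. There the numbers did not pair the 4 h and 24 h libraries with DMF or with CBD (lowest correlations 0.019 and 0.031). Where libraries share only a number, the block gave 1 instead of 0 in MMF against LPS at 4 h (Ikbkg, lowest correlation 0.084, 2 of 3 numbers correlating best with their own), 4 instead of 2 in DMF against MMF at 4 h (0.060, 2 of 3) and 4 instead of 2 in DMSO over time (0.003, 2 of 3). Over all genes it called 179 of 11431, 1740 of 11377 and 6483 of 11482 in these. DESeq2 gave 1 instead of 0 in the change of the LPS effect over time against DMSO and against EtOH, and 4 instead of 2 in that of the CBD effect, as did TMM scaling (4, Rela and Ikbkg added). No paired analysis was possible for LPS against a vehicle because the groups share no numbers.

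Leaving out 1 library moved the count to 3 to 5 in LPS against DMSO and 3 to 6 in LPS against EtOH at 4 h, 0 to 1 in MMF against LPS and 1 to 5 in DMF against MMF at 4 h, 1 to 2 in DMF against LPS and 0 to 1 in DMF against MMF at 24 h. Over time it gave 2 to 4 in DMSO, 1 to 5 in LPS, 2 to 5 with DMF and 2 to 4 with MMF. The changes of the LPS effect gave 0 to 1 against either vehicle and that of the CBD effect 1 to 4. The lowest member and library held 260 reads; whether depth or the number of libraries limits the calls was not tested. Of 120 group means, 114 stayed within 1 SD under TMM scaling, but 56 moved by more than 1 SD at the highest and 39 at the lowest of the scalings of the deposited tables.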
